A study of Mus musculus with 2 samples.

Results

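The genes described here are the 10 mouse genes that encode the vascular endothelial growth factor (VEGF) ligands and their receptors, taken by symbol from the 32285 genes of the deposited count matrix. The ligands are Vegfa, Vegfb, Vegfc, Vegfd and Pgf, the tyrosine kinase receptors are Kdr, Flt1 and Flt4, and the neuropilin co-receptors are Nrp1 and Nrp2. Single-cell RNA-seq was performed on tdTomato-positive (tdT+) cells sorted from E14 mouse embryos from which the head and viscera had been removed. Both libraries carried Myf5-Cre, in which Cre is driven by the promoter of Myf5, a gene of early muscle progenitors, and a Cre-dependent tdT reporter, so the endothelium measured is that which passed the tdT+ gate. The titles give SRSF2f/f/Myf5-Cre/tdT for one library and SRSF2f/w/Myf5-Cre/tdT for the other, in which 1 Srsf2 allele is floxed, so the control of the design is itself heterozygous. Srsf2 encodes a splicing factor. There was 1 library per genotype, the number of embryos in each was not given in the sources used here, and no genotype difference could be tested.

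The genotype labels conflict. The library titled SRSF2f/f/Myf5-Cre/tdT (15268 barcodes) carries the identifier WT in its sequencing metrics, and the library titled SRSF2f/w/Myf5-Cre/tdT (12498 barcodes) carries the identifier KO. Srsf2 itself stood at 219 CPM, that is UMIs of the gene per 1000000 UMIs (95% exact interval 217 to 221), in the library labelled WT and at 153 (151 to 155) in the library labelled KO, and skeletal muscle-like cells made up 20.9% (20.2 to 21.7) and 1.42% (1.20 to 1.67) of their cells. These values go against the titles, although whether the counted 3′ reads cover the floxed part of Srsf2 was not tested. The Srsf2 levels are over all kept cells, whose types differ in share between the libraries, and levels within a cell type are not given here. The libraries are therefore called the library labelled WT and the library labelled KO throughout, and every direction between them reverses in genotype if the titles are right.

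The library labelled WT held 156093779 UMIs from 571426356 reads and the library labelled KO held 128116615 UMIs from 575393483 reads. After filters on UMIs, genes and mitochondrial reads, 22868 of 27766 cells were kept, 12523 and 10345 per library, and 74 barcode sequences occurred in both libraries. Levels are given as CPM, the UMIs of a gene per 1000000 UMIs of all cells of a type in 1 library, with a 95% exact Poisson interval in brackets that covers counting error only.

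VEGF ligands are secreted dimers that bind receptor tyrosine kinases on endothelial cells. VEGF-A acts through VEGFR2 (Kdr) to drive the growth and sprouting of blood vessels, and VEGFR1 (Flt1) binds VEGF-A tightly, with weak kinase activity, and also binds VEGF-B and placental growth factor. VEGF-C and VEGF-D act through VEGFR3 (Flt4), the main receptor of lymphatic growth, and the neuropilins serve VEGF ligands and class 3 semaphorins as co-receptors.

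In GRCm38 coordinates of the GENCODE vM21 annotation, Vegfa lies at chr17:46016993-46032369 (minus strand), Vegfb at chr19:6982473-6987651 (minus), Vegfc at chr8:54077606-54187096 (plus), Vegfd at chrX:164373378-164402650 (plus) and Pgf at chr12:85166635-85177790 (minus). Kdr lies at chr5:75932827-75978458 (minus), Flt1 at chr5:147561604-147726011 (minus), Flt4 at chr11:49609263-49652739 (plus), Nrp1 at chr8:128358604-128503363 (plus) and Nrp2 at chr1:62703285-62818695 (plus). Kdr and Flt1 are thus both on the minus strand of chromosome 5. All 10 are protein-coding. Nrp1 overlaps the microRNA gene Mir1903, and Nrp2 overlaps the antisense gene Gm29083 and, on its own strand, Gm37121, so reads of Nrp2 and Gm37121 may not be fully separable.

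The promoters of Kdr and Flt1 are shown because these receptors were highest in endothelium, and that of Vegfa because this ligand was highest outside it. The windows are the 250 bases before a RefSeq start on GRCm38.p6 (for Vegfa, which has 2 such windows, the upstream one), written 5′ to 3′ on the minus strand, at chr5:75978456-75978705, chr5:147726012-147726261 and chr17:46032378-46032627 in that order. Capitals mark the letters GGAA or their reverse complement TTCC, the core that ETS-family factors recognise.
Kdr: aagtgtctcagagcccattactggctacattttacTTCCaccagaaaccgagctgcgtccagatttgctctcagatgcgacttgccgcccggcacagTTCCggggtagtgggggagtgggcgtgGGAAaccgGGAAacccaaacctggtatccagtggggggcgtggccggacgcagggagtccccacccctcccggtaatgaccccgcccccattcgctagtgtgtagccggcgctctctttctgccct
Flt1: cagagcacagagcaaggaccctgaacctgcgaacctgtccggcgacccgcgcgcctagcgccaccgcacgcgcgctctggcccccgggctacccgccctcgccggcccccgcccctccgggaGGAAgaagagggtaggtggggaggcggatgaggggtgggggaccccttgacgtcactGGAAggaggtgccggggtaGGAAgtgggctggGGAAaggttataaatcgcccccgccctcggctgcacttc
Vegfa: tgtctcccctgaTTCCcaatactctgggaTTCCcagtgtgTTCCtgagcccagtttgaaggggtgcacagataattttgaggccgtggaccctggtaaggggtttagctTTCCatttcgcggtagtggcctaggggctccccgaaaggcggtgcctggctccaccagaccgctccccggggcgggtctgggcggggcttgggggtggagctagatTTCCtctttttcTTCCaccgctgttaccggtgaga
The Kdr and Flt1 windows each held 4 matches and the Vegfa window held 6. At least 1 match is common, being present in 93.4% of 32851 RefSeq promoter windows of that length. GC boxes (GGGCGG or CCGCCC) occurred 2, 3 and 2 times in the windows as listed, against a share of 32.7% of all windows with any. The hypoxia response core ACGTG or CACGT was in none of these 3 and in 16.6% of all windows. It occurred 1 time in the second Vegfa window (chr17:46025164-46025413), which also held 2 GGAA or TTCC matches and 1 GC box, and no other member had it. The searches were run separately, so matches of different motifs may share bases.

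Endothelial cells were those with 2 or more UMIs of Pecam1 and Cdh5, 2 junction proteins of endothelium. They were divided by the summed UMIs of the lymphatic genes Mmrn1, Prox1 and Lyve1 into blood endothelial cells (BEC, 2 or fewer) and lymphatic endothelial cells (LEC, 3 or more). The BEC gate held 317 cells in the library labelled WT and 627 in the library labelled KO, or 2.53% (2.26 to 2.82) and 6.06% (5.61 to 6.54) of kept cells. The LEC gate held 213 and 637 cells, or 1.70% (1.48 to 1.94) and 6.16% (5.70 to 6.64). The remaining cells took the class of their cluster, named from marker genes as skeletal muscle-like (SKM), mesenchyme-like (Mesen), chondrocyte-like (Chon), osteoblast-like (Osteo), neuron-like (Neu), Schwann-like (Sch), pericyte-like (Peri), macrophage-like (Mac), mast-like, lymphoid-like, epithelium-like and erythroid-like.

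The gates were compared with markers that did not define them and with the clusters, and the BEC gate was mixed. Markers of lymphatic endothelium beyond the gate genes (Ccl21a, Pdpn, Reln, Maf and Foxc2) summed to 6109 and 6726 CPM in LEC and to 153 and 140 CPM in BEC. The markers of blood endothelium were Emcn, Plvap, Sox17, Gja4, Gja5, Hey1, Aplnr and Ephb4. They separated the gates less, with sums of 747 and 830 CPM in BEC and 369 and 431 CPM in LEC. A sum can rest on few genes. By gene (edgeR test described below), 4 of the 5 lymphatic markers were higher in LEC and 1 was not called (median log2 1.80). Of 7 blood markers tested, 4 were lower in LEC, 1 was higher and 2 were not called (median log2 −1.05). Over all genes, 7.83% were higher and 10.9% lower in LEC. Of the gated LEC, 95.6% lay in endothelium-like clusters, but only 56.9% of the BEC did (537 of 944). The markers that name such clusters include the gate genes Pecam1 and Cdh5, so these shares are not independent of the gates. The LEC in such clusters were 739 cells in a cluster led by Ccl21a and Lyve1 and 74 in a cluster led by Emcn and Esam. The cluster led by Emcn and Esam also held 528 of the BEC, so a limit to endothelium-like clusters does not remove those 74 LEC. A further 205 BEC lay in mesenchyme-like clusters, where Kdr was 3.70 CPM, and the mesenchyme markers summed to 1607 and 1176 CPM in BEC against 568 and 375 CPM in LEC. Haemoglobin and other erythroid markers summed to 14025 and 15867 CPM in BEC and to 4153 and 5057 CPM in LEC. Values for the gated cells inside endothelium-like clusters are therefore given beside the values for all gated cells where they differ in their call.

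Differences between cell types were tested with edgeR's quasi-likelihood test on UMI sums of 14 cell types in each library, with Benjamini-Hochberg adjustment over 14431 genes. The spread in these tests is that of a cell type between the 2 libraries after their average difference was removed (library as a block). It was estimated over all 14 cell types together and is the spread meant below. The cell types were defined from the same cells, although no member entered the clustering or the gates.

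Vegfa, the principal ligand of blood vessel growth, was highest in chondrocyte-like cells. Its level there was 134 CPM [129 to 140] in the library labelled WT and 167 CPM [161 to 173] in the library labelled KO. Mesenchyme-like cells followed with 75.0 [72.7 to 77.3] and 93.5 [90.5 to 96.6] CPM. Pericyte-like cells (47.8 and 49.3 CPM), osteoblast-like cells (50.4 and 45.6 CPM) and Schwann-like cells (45.7 and 49.1 CPM) came next, in an order that differed between the libraries. Not every step exceeded the spread between libraries, as LEC and BEC, neighbours lower in the order, did not differ (adjusted p = 0.746, edgeR). The steps down from chondrocyte-like and from mesenchyme-like cells did exceed it. Chondrocyte-like cells exceeded mesenchyme-like cells by 1.05 ± 0.0880 (log2, SE; adjusted p = 8.61e-10, edgeR), a contrast in which 43.8% of all genes were called. Mesenchyme-like cells exceeded pericyte-like cells by 0.79 ± 0.131 (adjusted p = 9.69e-05), where 18.2% of all genes were called. Mesenchyme-like cells, the most numerous type, contributed 40.6% of the 19244 Vegfa UMIs and chondrocyte-like cells 29.4%. BEC (31.8 and 34.6 CPM), LEC (30.6 and 36.1 CPM) and skeletal muscle-like cells (22.7 and 26.2 CPM) carried less, and mast-like cells had the lowest level in both libraries (9.28 and 13.5 CPM).

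Vegfa was also read by prehypertrophic markers in the chondrocyte-like clusters and the unnamed cluster beside them. In cells with 2 or more UMIs of Ihh and Col10a1, genes of maturing growth-plate chondrocytes, Vegfa was 114 CPM [105 to 123] and 126 CPM [116 to 137] (304 and 239 cells). In the remaining cells of these clusters it was 140 CPM [135 to 145] and 174 CPM [168 to 180] (1439 and 1367 cells). The intervals of the 2 sets did not overlap in either library, but they cover counting error only and not the spread between cells. The difference was not tested. These cells include a cluster led by Col10a1 that took no name, whose Vegfa level over all of its cells was 133 CPM [124 to 143] and 152 CPM [141 to 165], beside 147 [141 to 154] and 185 [178 to 192] CPM in the larger chondrocyte-like cluster and 108 [100.1 to 116] and 117 [107 to 127] CPM in the smaller.

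Vegfb, a ligand of Flt1 linked to metabolic functions in muscle and heart, had a different order. Skeletal muscle-like cells were highest with 85.7 CPM [82.8 to 88.7] and 98.2 CPM [85.4 to 112], followed by mesenchyme-like cells with 66.9 [64.8 to 69.1] and 57.6 [55.2 to 60.0] CPM. LEC had 60.3 [52.6 to 68.8] and 55.4 [51.4 to 59.6] CPM and Schwann-like cells 58.4 [49.2 to 68.8] and 57.2 [46.8 to 69.1] CPM, the higher of these being LEC in the library labelled WT and Schwann-like cells in the library labelled KO. Within muscle, the level was uneven: the cluster led by Myod1 and Pax7 had 101 [97.1 to 106] and 109 [90.2 to 132] CPM and the cluster led by Msc and Pax7 95.7 [89.4 to 102] and 132 [101 to 169.6] CPM. The muscle cluster led by Mylpf and Myl1 had 47.9 [43.8 to 52.3] and 55.7 [39.0 to 77.1] CPM. Skeletal muscle-like cells exceeded mesenchyme-like cells by 0.72 ± 0.0991 (log2; adjusted p = 1.49e-06, edgeR; 57.2% of all genes called). Mesenchyme-like cells and LEC did not differ beyond their spread (log2 difference −0.01 ± 0.102, adjusted p = 0.956; 46.9% of all genes called). Erythroid-like cells were lowest with 15.1 and 14.9 CPM. In these cells haemoglobin and other erythroid markers summed to 638949 and 785703 CPM, which lowers the CPM of all other genes.

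Vegfc and Vegfd, the ligands of lymphatic growth, were sparse, with 1657 and 2518 UMIs in all kept cells. Vegfc was 16.4 CPM [11.5 to 22.7] and 11.4 CPM [5.88 to 19.9] in pericyte-like cells, 9.92 [9.11 to 10.8] and 10.6 [9.61 to 11.7] CPM in mesenchyme-like cells, and 8.87 [6.50 to 11.8] and 11.4 [9.57 to 13.5] CPM in BEC. These leading types did not differ beyond their spread. The difference was 0.51 ± 0.309 (log2) between pericyte-like and mesenchyme-like cells (adjusted p = 0.287) and −0.05 ± 0.239 between mesenchyme-like cells and BEC (adjusted p = 0.900), a contrast in which 38% of all genes were called. Mesenchyme-like cells held 58.2% of all Vegfc UMIs. No Vegfc UMI was counted in lymphoid-like cells, which allows up to 14.7 and 2.09 CPM (upper 95% exact limit).

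Vegfd was more restricted, with 81.9% of its UMIs in mesenchyme-like cells. The level there was 22.4 CPM [21.2 to 23.7] and 21.0 CPM [19.5 to 22.4], against 6.83 [3.82 to 11.3] and 6.64 [2.67 to 13.7] CPM in pericyte-like cells, a difference of 1.77 ± 0.388 (log2; adjusted p = 0.00187, edgeR). Pericyte-like and erythroid-like cells came next in mean level and did not differ beyond their spread (fitted log2 difference −1.41 ± 0.674, opposite in sign to the CPM; adjusted p = 0.270; 6.86% of all genes called). Within the mesenchyme-like cells Vegfd was uneven: it was 74.8 and 106 CPM in a cluster led by Cd55 and Dpt, and 62.8 and 57.2 CPM and 44.1 and 36.0 CPM in a pair of clusters led by Twist2 and Crabp1.

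Pgf, which encodes placental growth factor, was the ligand with its highest level in endothelium. LEC had 438 CPM [416 to 460] in the library labelled WT and 375 CPM [365 to 386] in the library labelled KO, and held 67.6% of the 9554 Pgf UMIs. BEC had 44.0 CPM [38.5 to 50.1] and 67.4 CPM [62.8 to 72.2], pericyte-like cells 20.0 and 23.7 CPM, and the remaining 11 types between 0 and 18.4 CPM. LEC exceeded BEC by 2.91 ± 0.139 (log2; adjusted p = 2.47e-13, edgeR), and BEC exceeded pericyte-like cells by 1.45 ± 0.236 (adjusted p = 6.00e-05; 18.8% of all genes called). LEC, BEC and pericyte-like cells kept this order in both libraries, while the order among the remaining types differed.

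**Figure D1:**
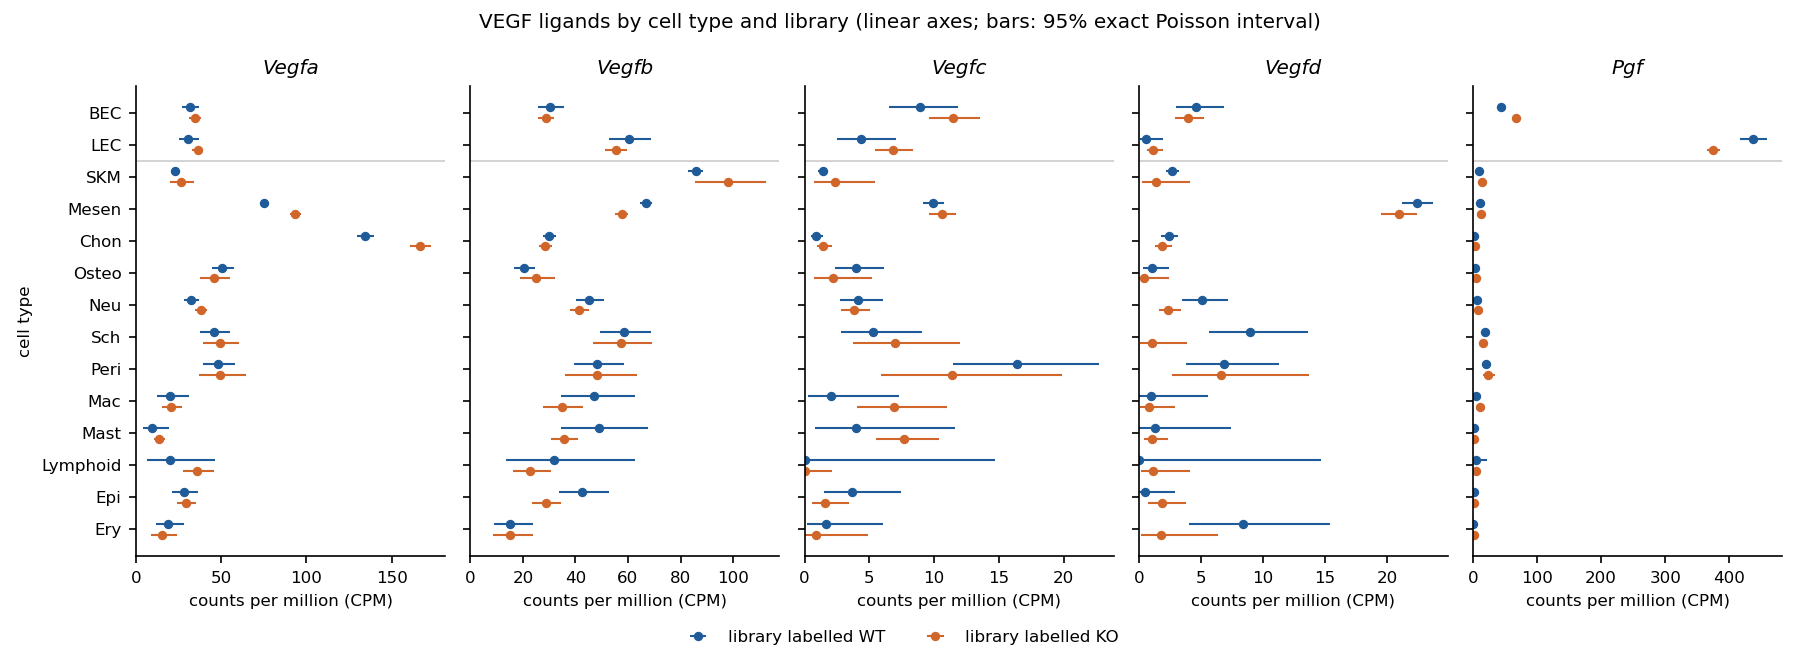
Levels of the 5 ligands (horizontal axes, CPM, linear) in 14 cell types (vertical axis) of the library labelled WT (blue) and the library labelled KO (orange), with 95% exact Poisson intervals as bars. Vegfa peaks in Chon at 134 and 167, Vegfb in SKM, Vegfd in Mesen and Pgf in LEC at 438 and 375.

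Kdr, the main signalling receptor for VEGF-A, was an endothelial gene shared by both gates. BEC had 284 CPM [269 to 299] and 272 CPM [262 to 281], and LEC had 332 CPM [313 to 351] and 317 CPM [307 to 326]. The other 12 types lay between 0 and 4.04 CPM in either library, and BEC exceeded mesenchyme-like cells by 6.40 ± 0.155 (log2; adjusted p = 3.66e-20, edgeR). LEC and BEC did not differ beyond the spread between libraries (0.28 ± 0.118, adjusted p = 0.108). The sign depended on which BEC were counted: inside endothelium-like clusters Kdr was 434 [411 to 459] and 423 [408 to 439] CPM in BEC against 344 [324 to 364] and 328 [318 to 339] CPM in LEC, a log2 difference of −0.40 that also did not pass the test (adjusted p = 0.177). With each cell thinned to 2000 UMIs, 34.5% and 33.8% of BEC and 46.0% and 44.8% of LEC held a Kdr UMI, against 0.233% and 0% of skeletal muscle-like cells. The median depths before thinning were 12464 and 14673 UMIs in BEC and 14300 and 17315 UMIs in LEC.

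Flt1, the high-affinity and weakly signalling receptor, marked blood endothelium. BEC had 362 CPM [345 to 378] and 278 CPM [268 to 287], and LEC had 77.2 CPM [68.5 to 86.7] and 64.6 CPM [60.3 to 69.2]. BEC exceeded LEC by 2.16 ± 0.228 (log2; adjusted p = 1.93e-07, edgeR). The log2 ratio of LEC over BEC, −2.16 in these terms, was −2.90 inside endothelium-like clusters and −3.62 between BEC at 0 and LEC at 6 or more lymphatic UMIs, so the size depended on the cells near the limit. In the library labelled WT, LEC with 3 lymphatic UMIs (13 cells) and with 4 to 5 (14 cells) gave 141 and 101 of the 283 Flt1 UMIs, and in the library labelled KO (21 and 32 cells) 223 and 250 of 835. Outside the endothelium, pericyte-like cells had 68.3 CPM [57.8 to 80.2] and 39.8 CPM [28.7 to 53.8], which did not differ from the LEC gate as a whole beyond the spread (LEC over pericyte-like cells 0.36 ± 0.308, adjusted p = 0.446; 25.5% of all genes called). The LEC with 11 or more lymphatic UMIs (161 and 509 cells) had 4.28 and 17.5 CPM, below the pericyte-like level in both libraries. Chondrocyte-like cells had 11.5 and 25.1 CPM and mesenchyme-like cells 8.73 and 13.9 CPM, and the remaining types were between 0 and 7.94 CPM.

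Flt4, the receptor for VEGF-C and VEGF-D, was the most lymphatic of the 3 kinases by its share of UMIs, with 83.8% of its 3215 UMIs in LEC and 11.1% in BEC. LEC had 175 CPM [161 to 189] and 159 CPM [152 to 166], and BEC had 26.6 CPM [22.4 to 31.4] and 18.4 CPM [16.1 to 21.0]. All other types were at or below 2.28 CPM. LEC exceeded BEC by 2.97 ± 0.223 (log2; adjusted p = 2.28e-09, edgeR), and BEC exceeded pericyte-like cells by 3.67 ± 0.492 (adjusted p = 6.88e-06). Inside endothelium-like clusters the difference between LEC and BEC was 2.30 (adjusted p = 2.04e-07).

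Nrp1, a co-receptor for VEGF-A and semaphorin 3A, was broad. BEC had 139 CPM [129 to 149] and 123 CPM [117 to 129], neuron-like cells 131 [122 to 141] and 126 [119 to 132] CPM, and pericyte-like cells 94.7 [82.3 to 109] and 137 [116 to 162] CPM. These did not differ beyond their spread. The log2 difference was 0.25 ± 0.165 between BEC and neuron-like cells (adjusted p = 0.192; 59.4% of all genes called) and 0.06 ± 0.201 between neuron-like and pericyte-like cells (adjusted p = 0.845; 45.7% of all genes called). Mesenchyme-like cells had 107 and 82.8 CPM and held 53.3% of the 17197 Nrp1 UMIs. LEC, by contrast, had 32.2 CPM [26.6 to 38.6] and 25.7 CPM [23.0 to 28.6], and skeletal muscle-like cells 8.24 and 6.08 CPM.

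Nrp2, a co-receptor for VEGF-C and semaphorin 3F, was highest in LEC with 599 CPM [575 to 625] and 564 CPM [551 to 577]. Osteoblast-like cells were next with 527 CPM [507 to 548] and 472 CPM [444 to 502], which did not differ from LEC beyond the spread (0.05 ± 0.220, log2; adjusted p = 0.886, edgeR; 41.8% of all genes called). Osteoblast-like cells exceeded BEC, at 177 [166 to 189] and 206 [198 to 214] CPM, by 1.61 ± 0.227 (adjusted p = 3.14e-06; 37.1% of all genes called). Skeletal muscle-like cells had 9.11 and 3.74 CPM. Nrp1 in osteoblast-like cells was 28.4 and 26.1 CPM.

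**Figure D2:**
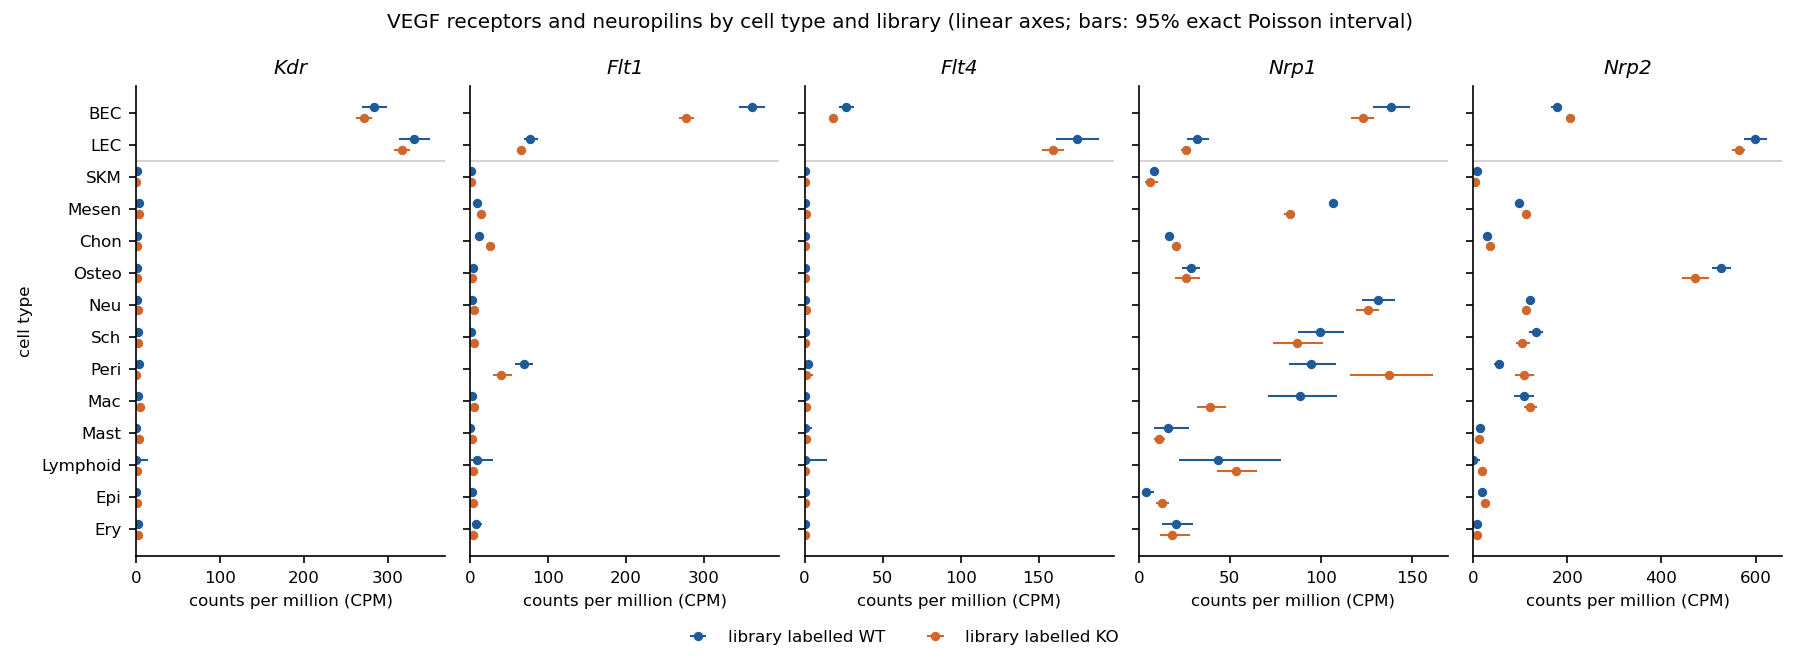
Levels of the 3 receptor kinases and the 2 neuropilins (horizontal axes, CPM, linear) in 14 cell types (vertical axis) of the library labelled WT (blue) and the library labelled KO (orange), with 95% exact Poisson intervals as bars. Kdr is high in BEC and LEC, Flt1 in BEC, Flt4 in LEC, and Nrp2 in LEC and Osteo.

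Set side by side, the members divided the 2 endothelial gates. Of the 10 members, 7 passed the test between LEC and BEC (9 at an unadjusted p under 0.05), where 18.7% of all genes were called. Higher in LEC were Pgf, Flt4, Nrp2 and Vegfb, 4 of 10 members against 7.83% of all genes. Lower in LEC were Flt1, Nrp1 and Vegfd, 3 of 10 members against 10.9% of all genes. The 2 neuropilins moved apart, Nrp2 by 1.66 ± 0.226 (log2; adjusted p = 6.80e-06) and Nrp1 by −2.15 ± 0.194 (adjusted p = 1.60e-08), the latter −2.80 between BEC at 0 and LEC at 6 or more lymphatic UMIs. Vegfb differed by 1.02 ± 0.117 (adjusted p = 6.76e-07).

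Vegfd differed by −1.93 ± 0.468 (adjusted p = 0.00399), from 4.63 and 3.97 CPM in BEC to 0.546 and 1.16 CPM in LEC, the last 2 values resting on 2 and 15 UMIs. Inside endothelium-like clusters it lost its call (−0.78, adjusted p = 0.537). The BEC that lay in mesenchyme-like clusters had 14.8 CPM of Vegfd. Vegfa and Vegfc did not pass the test, with log2 differences of 0.07 ± 0.118 (adjusted p = 0.746) and −0.74 ± 0.284 (adjusted p = 0.0727). Both passed inside endothelium-like clusters, Vegfa at 0.62 (adjusted p = 0.00264) with 20.8 and 21.7 CPM in BEC against 29.5 and 36.2 CPM in LEC, and Vegfc at −1.35 (adjusted p = 0.00174) with 10.0 and 16.5 CPM against 3.84 and 6.47 CPM.

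**Figure D3:**
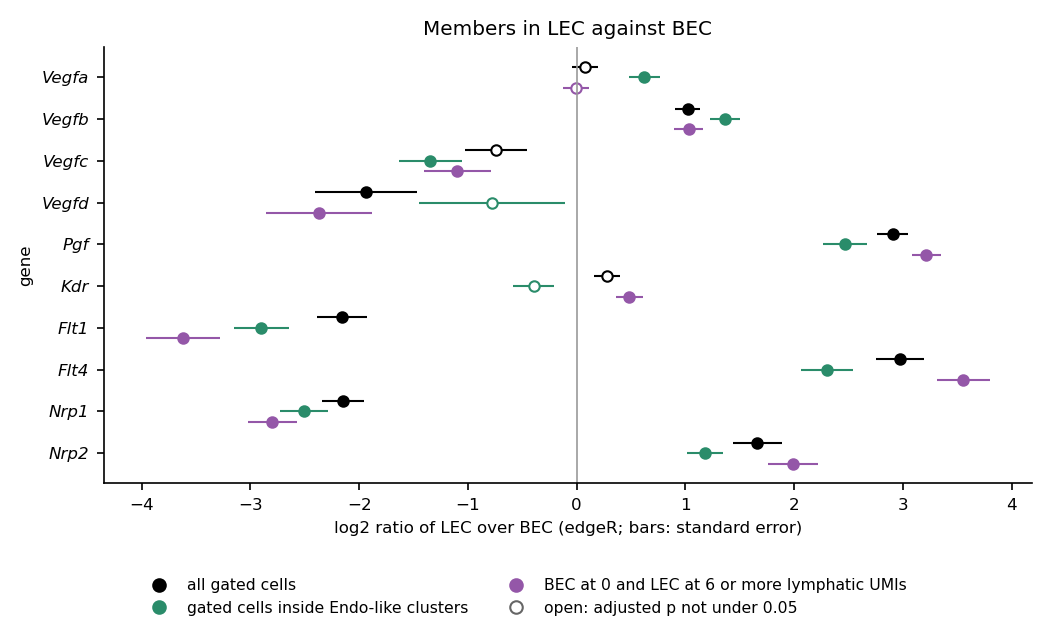
Log2 ratio of LEC over BEC (horizontal axis, edgeR, bars are standard errors) for the 10 genes (vertical axis), from all gated cells (black), gated cells inside endothelium-like clusters (green), and BEC at 0 against LEC at 6 or more lymphatic UMIs (purple), with open circles where the adjusted p was not under 0.05. Pgf, Flt4, Nrp2 and Vegfb are above 0 and Flt1 and Nrp1 below 0 in all 3, while Kdr lies at 0.28, −0.40 and 0.49.

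The members were then read along the number of lymphatic UMIs, as a description with no test. From cells with 0 UMIs of Mmrn1, Prox1 and Lyve1 to cells with 11 or more, Flt1 went from 338 to 4.28 CPM in the library labelled WT and from 239 to 17.5 CPM in the library labelled KO. The change was not a steady fall, since Flt1 was 506 [442 to 576] and 320 [295 to 346] CPM at 2 lymphatic UMIs. At 4 to 5 lymphatic UMIs, on the LEC side of the limit, Flt1 was still 401 [327 to 487] and 333 [293 to 377] CPM. Nrp1 went from 137 to 13.2 and from 117 to 12.1 CPM, and Flt4 from 21.3 to 202 and from 13.1 to 180 CPM. Nrp2 went from 151 to 664 and from 176 to 608 CPM. Pgf at 3 lymphatic UMIs, just inside the LEC gate, was 3.96 [0.100 to 22.1] and 8.60 [3.16 to 18.7] CPM, below the 48.8 [30.6 to 73.9] and 96.8 [83.4 to 112] CPM at 2 UMIs, and then reached 536 and 436 CPM at 11 or more. Kdr was 248 and 220 CPM at 0 and 322 and 305 CPM at 11 or more, with higher values of 539 CPM at 3 UMIs in the library labelled WT and 444 CPM at 4 to 5 in the library labelled KO. The cells near the limit were few, with 13 and 21 cells at 3 UMIs and 14 and 32 cells at 4 to 5 UMIs.

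**Figure D4:**
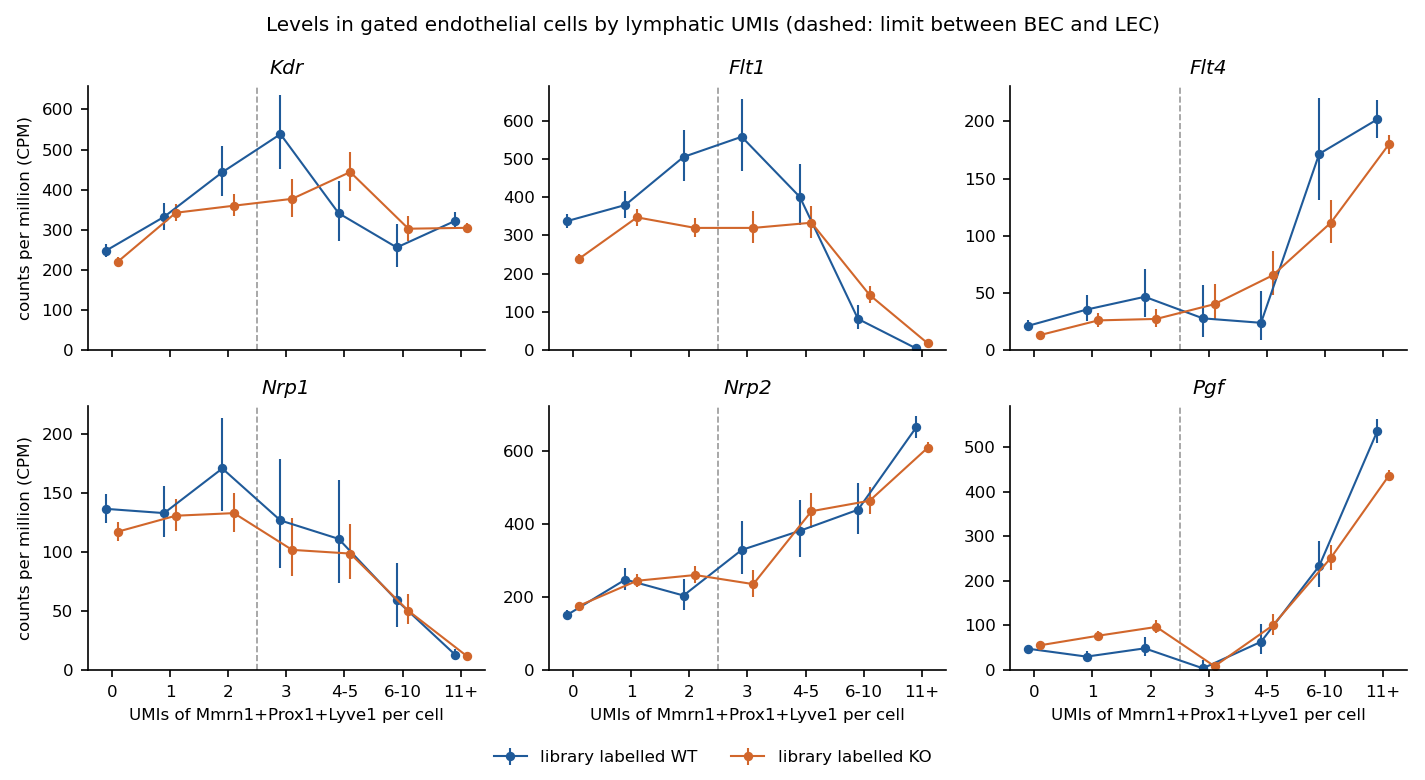
Levels of 6 genes (vertical axes, CPM, with 95% exact Poisson intervals) in gated endothelial cells of the library labelled WT (blue) and the library labelled KO (orange) against the UMIs of Mmrn1, Prox1 and Lyve1 per cell (horizontal axis), with the limit between BEC and LEC dashed. Flt1 and Nrp1 fall and Flt4, Nrp2 and Pgf climb towards 11 or more UMIs, and at 3 to 5 UMIs Flt1 stays between 320 and 558.

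Combinations of receptors were counted in cells thinned to 2000 UMIs, which removed few endothelial cells (316 and 621 BEC and 213 and 636 LEC remained). Kdr together with Flt4 was found in 1.58% [0.516 to 3.65] and 2.42% [1.36 to 3.95] of BEC and in 14.6% [10.1 to 20.0] and 14.9% [12.3 to 18.0] of LEC. Kdr together with Flt1 showed the reverse, in 21.5% and 18.8% of BEC and 4.69% and 3.30% of LEC. Nrp2 without Nrp1 was seen in 67.1% and 62.4% of LEC and in 19.0% and 21.3% of BEC. At full depth, Kdr and Flt4 were found together in 80.8% and 83.6% of LEC and in 25.3% and 22.4% of BEC, so most LEC held transcripts of both kinases. Neither was found in 38.6% and 38.8% of BEC and in 4.69% and 1.89% of LEC at that depth. All BEC percentages here include the gated cells outside endothelium-like clusters.

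Genes around the pathway were counted from lists chosen with earlier results of these data known. Each count over all gated cells stands against 7.83% of all genes higher and 10.9% lower in LEC. Counts inside endothelium-like clusters stand against 2135 of 14264 genes called in either direction. Whether a list stood apart from other genes was not tested. For VEGF-C processing, the proteases that mature VEGF-C and VEGF-D and their cofactor, 1 of 8 genes was higher in LEC, 2 were lower and 5 were not called. Ctsd, a lysosomal protease that can cleave both ligands, was higher in LEC (1.64, log2; adjusted p = 3.20e-07, edgeR), while the proprotein convertase Pcsk5 (−1.08) and the procollagen protease Adamts2 (−1.87) were lower. Ccbe1, the cofactor of VEGF-C cleavage, had −1.25 and Adamts3, the protease it works with, −0.47, and neither passed (adjusted p = 0.396 and 0.402). The median over the 8 genes was −0.47 against −0.02 over all genes tested.

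Of 12 class 3 semaphorins and plexins, the other ligands and partners of the neuropilins, 2 were higher in LEC, 3 were lower and 7 were not called (median −0.23). Sema3d (2.15) and Sema3a (1.12) were higher, and Sema3g (−3.34), a semaphorin of arterial endothelium, Sema3c (−1.69) and Sema3e (−1.37) were lower. Inside endothelium-like clusters Sema3c and Sema3e lost their calls, Plxnd1 was lower (−0.91) and Plxna4 higher (1.11). Of 28 signalling genes downstream of the receptors, 3 were higher, 3 lower and 22 not called (median −0.07), shares near those of all genes. Nos3, the endothelial nitric oxide synthase, was lower in LEC (−1.22, adjusted p = 0.00735) and the lipid kinase subunit Pik3ca higher (0.75, adjusted p = 1.14e-04). Inside endothelium-like clusters the count was 1 higher and 7 lower, where 2135 of 14264 genes were called in either direction.

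Of 14 VEGF-responsive and tip-cell genes, 9 were lower in LEC, against 10.9% of all genes, 2 were higher and 3 were not called (median −1.04, against −0.02 over all genes tested). On this list Esm1 (−2.94), Apln (−2.61) and Cd34 (−2.37) were lower. Angpt2, the context-dependent Tie2 ligand (2.30), and the netrin receptor Unc5b (2.11), of the same list, were higher. Angpt2 is also counted among the angiopoietin genes. Of 5 angiopoietin and Tie genes, 1 was higher and 2 lower, and of 16 hypoxia-pathway genes tested, none was higher and 6 were lower, among them Epas1 (−1.77), which encodes HIF-2α, the glucose transporter Slc2a1 (−1.60) and Adm (−1.23), which encodes adrenomedullin. With only cells of endothelium-like clusters, the tip-cell count was 8 lower and 2 higher and the hypoxia count 5 lower and 1 higher (Egln3, 0.93). That fit called 2135 of 14264 genes in either direction.

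Between the libraries, the sign and size of a member's ratio depended on whether all cells or 1 cell type was read. Over all kept cells, the log2 ratio of the library labelled KO over the library labelled WT was 1.78 [1.66 to 1.89] for Flt4, 1.66 [1.59 to 1.72] for Kdr, 1.41 [1.35 to 1.48] for Pgf and 1.06 [0.998 to 1.13] for Flt1. These 4 of 10 members were past 2-fold upward and none downward, against 6.77% and 1.84% of all genes with 200 or more UMIs. Nrp2 (0.73), Vegfc (0.35), Vegfa (0.28), Nrp1 (0.07), Vegfd (−0.32) and Vegfb (−0.43) were within 2-fold. The gates moved alongside, LEC making up 1.70% and 6.16% of the kept cells and skeletal muscle-like cells, the type highest in Vegfb, 20.9% and 1.42%; their part in these ratios was not tested.

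Within the endothelial gates the ratios of members with 200 or more UMIs stayed within 2-fold, although few genes passed that limit. In BEC, 97.6% of all genes with 200 or more UMIs lay below the ratio of Pgf and 4.06% below that of Flt4. For the other members counted there the share was between 10.0% and 84.6%. In BEC, 0 of the 8 members with 200 or more UMIs were past 2-fold, against 1.51% of all genes in either direction, and in LEC 0 of 8, against 0.799%. Kdr stood at −0.06 [−0.15 to 0.03] in BEC and −0.07 [−0.16 to 0.03] in LEC. In BEC the intervals lay below 0 for Flt1 (−0.38 [−0.46 to −0.30]), Flt4 (−0.53 [−0.84 to −0.21]) and Nrp1 (−0.17 [−0.30 to −0.04]), and above 0 for Pgf (0.62 [0.40 to 0.83]) and Nrp2 (0.22 [0.11 to 0.33]). In LEC the intervals lay below 0 for Pgf (−0.22 [−0.30 to −0.14]), Flt1 (−0.26 [−0.45 to −0.06]) and Flt4 (−0.14 [−0.26 to −0.005]). They also did for Nrp1 (−0.33 [−0.63 to −0.01]) and Nrp2 (−0.09 [−0.16 to −0.02]), and lay above 0 for none. The median ratio of all genes was −0.04 in BEC and −0.03 in LEC, and how many of all genes had an interval off 0 was not counted.

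Outside the endothelium, among members with 200 or more UMIs in a named type, 2 were past 2-fold. Flt1 in chondrocyte-like cells was 11.5 CPM [10.0 to 13.0] and 25.1 CPM [22.8 to 27.6], a log2 ratio of 1.13 [0.90 to 1.37], 1 of 5 members there against 0.561% of all genes. Nrp2 in skeletal muscle-like cells was 9.11 CPM [8.19 to 10.1] and 3.74 CPM [1.62 to 7.37], a log2 ratio of −1.28 [−2.51 to −0.29], 1 of 5 members against 3.29% of all genes. This ratio rests on 8 UMIs in the 145 skeletal muscle-like cells of the library labelled KO. Below 200 UMIs, several ratios were past 2-fold in either direction with intervals off 0. Examples in neuron-like cells were Flt1 (1.24 [0.32 to 2.28]) and Vegfd (−1.10 [−1.87 to −0.32]). Another was Nrp1 in macrophage-like cells, with 88 and 97 UMIs, at 88.3 and 39.2 CPM, a log2 ratio of −1.17 [−1.60 to −0.74]. In mesenchyme-like cells 0 of 9 members were past 2-fold, with Flt1 at 0.67 [0.49 to 0.85], Vegfa at 0.32 [0.25 to 0.38] and Nrp1 at −0.37 [−0.43 to −0.31]. Vegfa in chondrocyte-like cells was 0.31 [0.24 to 0.39]. With 1 library per genotype, none of these ratios can be told apart from a difference between single libraries.

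**Figure D5:**
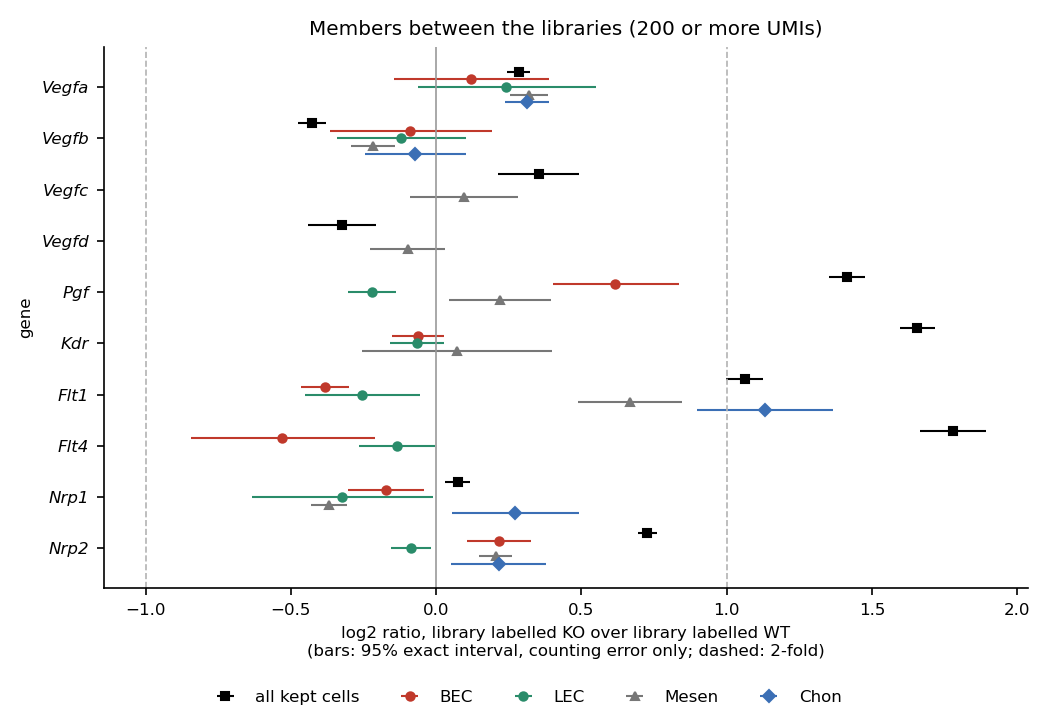
Log2 ratio of the library labelled KO over the library labelled WT (horizontal axis; bars are 95% exact intervals of counting error, dashed lines 2-fold) for the 10 genes (vertical axis) over all kept cells (black), BEC (red), LEC (green), Mesen (grey) and Chon (blue), where a gene had 200 or more UMIs. Over all kept cells Flt4, Kdr, Pgf and Flt1 lie between 1.06 and 1.78, while in BEC and LEC they lie between −0.53 and 0.62.

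The genes whose levels were most like those of each member were found by correlation across cell types. Over the 28 sums of 14 cell types in 2 libraries, on the log2(CPM + 1) scale, Kdr was closest to Cdh5 (Pearson r = 0.974), Tie1 (0.972) and Madcam1 (0.956), Flt1 to Adgrf5 (0.909), Sele (0.903) and Eng (0.899), and Flt4 to Gpr182 (0.985), Klhl4 (0.977) and Btnl9 (0.966). Pgf was closest to Efcc1 (0.884), Angpt2 (0.881) and Clca3a1 (0.879), Nrp1 to Ntrk3 (0.832), Stard9 (0.824) and Plcl1 (0.797), and Nrp2 to Fam167a (0.885), Cd200 (0.877) and Rab11fip5 (0.867). Among the other ligands, Vegfa was closest to P3h3 (0.894), Plod3 (0.875) and Hsd17b7 (0.874), Vegfb to Slf2 (0.852), Lzic (0.843) and Fxr1 (0.829), Vegfc to Cd81 (0.836), Nhsl2 (0.822) and Vim (0.815), and Vegfd to Abi3bp (0.875), Tmem26 (0.842) and Kcne4 (0.841). P3h3 and Plod3 encode collagen-modifying enzymes. Between members, Kdr and Flt4 had 0.939 and Pgf and Flt4 0.873. The points share libraries and depth, and Cdh5 took part in the gate.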

How the data were processed

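The deposited values are UMI counts per gene and cell in 1 matrix of both libraries, made by the authors from 10x 3′ reads aligned to mm10 and aggregated with down-sampling of reads. Cell Ranger is named as 3.1.0 in the submitters' processing notes and as 5.0.0 in the matrix header. Cells within 2 SD of the mean log10 UMIs and genes of their library and with at most 10% mitochondrial UMIs were kept. They were clustered (2000 variable genes without the members, 30 principal components, Leiden resolution 0.8) and named from fixed markers. No doublet caller was run. UMI sums of 14 cell types in each library were tested with edgeR 4.0.16 (quasi-likelihood, library as a block), DESeq2 1.42.0 being an alternative, and scripts were checked on simulated data. Between the libraries, 1 per genotype, log2 ratios carry exact 95% intervals, with 2-fold as the limit for genes of 200 or more UMIs. Python 3.11.15, leidenalg 0.10.2 and SciPy 1.17.1 were used. Shares of cells with a UMI used cells thinned to 2000 UMIs, which left out 609 and 750 cells. Named genes were all members, the 3 most correlated genes of each, and up to 3 called genes of a list in each direction. Members and lists were chosen with earlier results of these data known. Promoter windows are from RefSeq, in which all 10 members matched.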

Additional observations from a re-analysis of the deposited data

Results flagged for a closer look

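The log2 ratio of the library labelled KO over the library labelled WT was read across cell types meeting the UMI minimum for ratios. For 4 members its interval lay above 0 in at least 1 cell type and below 0 in at least 1 other. The highest and the lowest such ratio of each member are given. How many of all genes did the same was not counted, so this count does not set the members apart from other genes. Pgf was 0.67 [0.07 to 1.22] in skeletal muscle-like cells and −0.22 [−0.30 to −0.14] in LEC. Flt1 was 1.13 [0.90 to 1.37] in chondrocyte-like cells and −0.38 [−0.46 to −0.30] in BEC. Nrp1 was 0.54 [0.22 to 0.85] in pericyte-like cells and −0.37 [−0.43 to −0.31] in mesenchyme-like cells. Nrp2 was 0.995 [0.61 to 1.38] in pericyte-like cells and −1.28 [−2.51 to −0.29] in skeletal muscle-like cells, which were 145 cells in the library labelled KO. The intervals cover counting error only, and the difference between cell types was not tested, since there was 1 library per genotype.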

How the results depend on the processing

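Vegfb, Pgf, Flt1, Flt4, Nrp1 and Nrp2 kept their direction and their call between LEC and BEC under all 10 alternatives, which gave 7 to 9 members called. The share of all genes called also changed, from 2811 of 25532 without the low-count filter to 4071 of 13209 with only the 4 sums of BEC and LEC. In the main fit it was 2705 of 14431. The 9 members were called with those 4 sums and with BEC at 0 and LEC at 6 or more lymphatic UMIs (3415 of 14295 genes). Kdr reversed to −0.40 with gated cells inside endothelium-like clusters only and to −0.24 with 4 or more UMIs of Pecam1 and Cdh5, and Vegfa to −0.0034 with BEC at 0 and LEC at 6 or more lymphatic UMIs. Vegfd lost its call in 2 of 10 alternatives, with the stricter Pecam1 and Cdh5 gate (−1.11, adjusted p = 0.284, edgeR) and inside endothelium-like clusters. Vegfc gained a call in 5 of 10, and Kdr and Vegfa in 2 each. The BEC gate held 537 cells inside endothelium-like clusters and 944 in all. The other 36 alternative values of member counts, leading types and gate sizes stayed within 1.5 times. Among the finer values, such as ratios and shares of single members, 240 stayed the same by the rules set and 68 moved. Counts inside endothelium-like clusters for the gene lists were added after the data were seen. With either library alone, 9 of 10 members kept the cell type that held most of their UMIs, the exceptions being Kdr (BEC in the library labelled WT) and Nrp2 (LEC in the library labelled KO), and 8 of 10 did so at Leiden resolution 1.6.

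No paired analysis between genotypes was possible because there was 1 library per genotype and no group had replicates. The tests between cell types took library as a block. The spread in the tests between cell types comes from 2 libraries, and p-values measure only that spread. Cell types and gates were defined from the same cells, 3′ UMI counts do not separate isoforms of a ligand or soluble from membrane Flt1, and members with few UMIs (Vegfc, Vegfd) are limited by depth.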

Other observations

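Clusters that took no name held some of the highest Vegfa levels. A cluster led by Col10a1 and Ihh had 133 CPM [124 to 143] in the library labelled WT and 152 CPM [141 to 165] in the library labelled KO, and a cluster led by Tbx3 and Hoxd13 had 94.4 [78.4 to 113] and 132 [119 to 146] CPM. The cluster led by Tbx3 and Hoxd13 also had Nrp2 at 117 and 112 CPM and Nrp1 at 67.1 and 44.3 CPM.

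In the 47 BEC-gated cells of a small cluster with haemoglobin and endothelial transcripts, Kdr was 375 CPM, Flt1 374 CPM and Pgf 126 CPM. The BEC inside endothelium-like clusters had 427, 473 and 79.6 CPM in the same order. Cells of endothelium-like clusters outside both gates were few, 14 and 27 per library. They held Nrp2 at 377 [263 to 524] and 521 [419 to 641] CPM and Pgf at 302 and 287 CPM. Their Flt4 was 86.2 [37.2 to 170] and 152 [99.5 to 223] CPM, from 8 and 26 UMIs.

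Macrophage-like cells had Nrp1 at 88.3 CPM [70.8 to 109] in the library labelled WT and 39.2 CPM [31.8 to 47.9] in the library labelled KO, from 84 and 206 cells, and Nrp2 at 107 and 122 CPM. Schwann-like cells had Vegfd at 8.98 CPM [5.63 to 13.6] and 1.08 CPM [0.131 to 3.90], the second value from 2 UMIs.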
